A study of Mus musculus with 12 samples.

Results

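The expression of 35 genes of tumor macrophages was examined in CT-26 tumors from mice that swam and mice that did not. The genes were taken by symbol, and each symbol was matched through its mouse Ensembl identifier in the GENCODE M21 annotation. All 35 were found among the 30630 genes listed for every tumor. Macrophages develop and survive under colony-stimulating factor 1 (CSF1) and its receptor CSF1R, and in tumors they engulf dying cells and antibody-coated targets, secrete complement and lysosomal enzymes, and present antigen. Their states differ widely between tumors and between regions of a tumor. Classical activation by interferon gamma and microbial products is known for Nos2, while alternative activation is known for Arg1, Mrc1, Chil3 and Retnla. Several of these genes are also made by other cells, among them Spp1, Apoe, Csf1, Gpnmb and Arg1, which tumor cells or fibroblasts can express.

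The CT-26 line was established from a colon carcinoma of a BALB/c mouse. The cells were injected subcutaneously in Matrigel into the right flank of male BALB/c mice, bought at 4 to 6 weeks of age, and all tumors of both groups came from this cell line. The control group did not swim, and the swimming group had 2 sessions of up to 30 min in water per day, 6 days per week, for 3 weeks. RNA was sequenced from 6 tumors of each group, drawn from the 10 mice per group and each from a different mouse. All values are FPKM, that is, fragments divided by gene length and by sequencing depth, which allows levels of different genes to be compared. The number of reads behind a value is unknown. Relative depth, read from the steps between the values of weakly expressed genes, was lowest in control 2 (0.695), with the remaining 11 tumors at 0.871 to 1. Of the epithelial markers of the injected cells, Krt8 and Krt18 were present in every tumor, at 1.86 to 129 and 5.89 to 14.8 FPKM, whereas Epcam was at most 0.177 FPKM and Cdh1 at most 0.430 FPKM. The 8 genes that define macrophages best (Adgre1, Cd68, Csf1r, Mertk, Fcgr1 and the 3 C1q genes) were present in all 12 tumors, with a summed level of 656 to 967 FPKM in control tumors and 748 to 1133 FPKM in swimming tumors.

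The sequence before the transcription start is shown for 4 genes, because their levels moved together from tumor to tumor and stand out in the comparisons described further down. They were picked after their values were seen. Each run holds the 250 bases before the start in the RefSeq annotation of GRCm38.p6, written 5′ to 3′ on the strand of the gene. Capitals mark GAGGAA, a core of binding sites of the macrophage factor PU.1, TTCNNNGAA, a gamma-activated sequence, and an interferon-stimulated response element, searched as GAAA, any 2 bases and GAAA again, all on either strand.
Aif1 (chr17:35176053-35176302, minus strand): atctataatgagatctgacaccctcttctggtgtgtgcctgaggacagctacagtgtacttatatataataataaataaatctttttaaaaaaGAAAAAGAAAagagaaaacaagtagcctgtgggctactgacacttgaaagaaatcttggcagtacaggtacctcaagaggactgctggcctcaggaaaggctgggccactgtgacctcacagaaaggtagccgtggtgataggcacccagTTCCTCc
Fcgr1 (chr3:96293970-96294219, minus strand): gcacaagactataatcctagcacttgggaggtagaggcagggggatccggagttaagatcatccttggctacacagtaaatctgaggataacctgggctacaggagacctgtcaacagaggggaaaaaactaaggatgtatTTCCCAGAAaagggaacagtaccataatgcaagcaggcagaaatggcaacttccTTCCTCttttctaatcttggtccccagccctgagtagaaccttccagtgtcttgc
Fcgr4 (chr1:171018676-171018925, plus strand): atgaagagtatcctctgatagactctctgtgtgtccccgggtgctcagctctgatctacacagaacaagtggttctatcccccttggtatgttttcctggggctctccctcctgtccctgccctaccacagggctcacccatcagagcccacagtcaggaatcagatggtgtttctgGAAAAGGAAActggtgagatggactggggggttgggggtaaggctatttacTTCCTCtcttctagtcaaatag
Ctss (chr3:95526536-95526785, plus strand): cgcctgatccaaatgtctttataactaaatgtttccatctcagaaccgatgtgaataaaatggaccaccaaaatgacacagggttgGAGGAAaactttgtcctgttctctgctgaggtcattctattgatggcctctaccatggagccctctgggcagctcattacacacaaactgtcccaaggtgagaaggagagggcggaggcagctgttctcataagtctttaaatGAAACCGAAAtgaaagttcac
In Aif1 the PU.1 core began 7 bases and the response element 157 bases before the start. In Fcgr1 the PU.1 core began 55 bases and the gamma-activated sequence 109 bases before it. In Fcgr4 the PU.1 core lay at 22 and the response element at 73 bases, and in Ctss they lay at 164 and 21 bases. None of these matches overlapped another in the 4 sequences. RefSeq promoters were matched for 26 of the 35 genes, with 32 promoters. GAGGAA was found in 18 of the 32 (56.2%), against 23.3% of the 32851 promoters of all genes. The response element was found in 4 of the 32 (12.5%), in Aif1, Ctss, Fcgr4 and Spp1, against 2.98% of all. TTCNNNGAA was found in 2 of the 32 (6.25%), in Fcgr1 and Chil3, against 7.02% of all. TGCTGA, the core of sites bound by Maf proteins, was searched in the same way and found in 9 of the 32 (28.1%), against 16.1% of all. A match gives the letters only and is not evidence of binding.

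The levels of the 35 genes covered more than 3 orders of magnitude. Spp1, which encodes the secreted phosphoprotein osteopontin, had the highest mean over the 12 tumors at 2677 FPKM, followed by Lyz2 (lysozyme) at 813 FPKM and C1qa at 379 FPKM. C1qb, Ctss, Apoe and C1qc lay between 135 and 201 FPKM. Cd68 was at 54.3, Mrc1 at 50.5 and Csf1r at 36.4 FPKM. At the other end, Nos2 had a mean of 1.81, Retnla 1.06, Vsig4 0.951 and Chil3 0.397 FPKM. Marco, a scavenger receptor of marginal zone and alveolar macrophages, was listed at 0 in 11 tumors and at 0.0324 FPKM in swimming 6, and it was not tested. The other 34 genes reached 0.1 FPKM in at least 6 tumors and were tested.

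**Figure D1:**
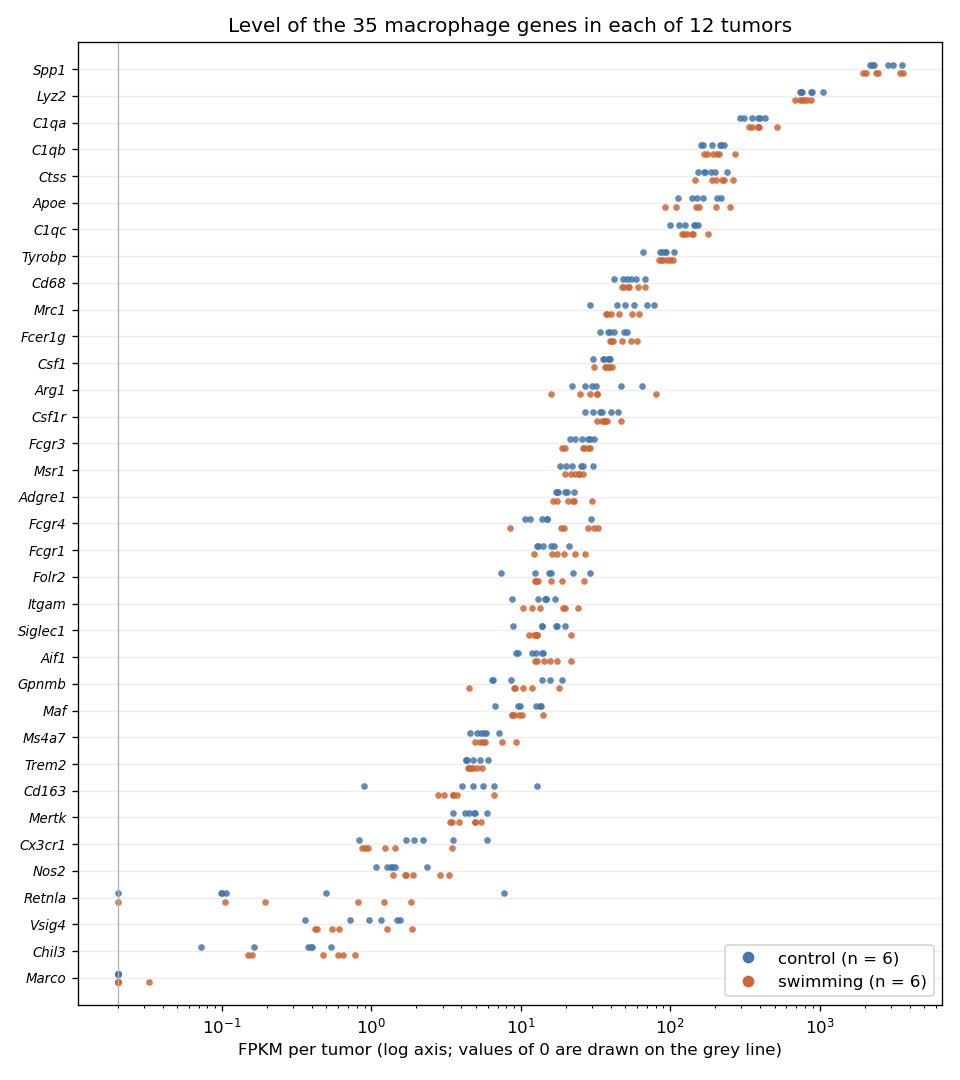
FPKM of each of the 35 genes in each tumor on a log axis, with genes ordered by their mean, control tumors as blue and swimming tumors as orange points (n = 6 each) and values of 0 on the grey line. Points of both groups overlap for every gene, and the genes run from Spp1 with a mean of 2677 FPKM down to Marco.

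The macrophage genes were then compared between the swimming and control groups. On log2(FPKM + 1), which understates the change of genes near or below 1 FPKM, 18 of the 34 genes tested had a higher and 16 a lower mean in the swimming group, and 51.7% of all 19018 genes tested were higher. Over the 34 genes the median log2 fold change came to 0.023, against 0.0039 for all genes tested. By limma, Aif1 alone had an unadjusted p below 0.05, that is 1 of 34 genes, while 5.56% of all genes tested did, so the share was not above the background. After Benjamini-Hochberg adjustment over all genes, limma gave 0 of the 34 genes and 0% of all genes tested an adjusted p below 0.05, and the smallest adjusted p among the 34 was 0.889. By the exact permutation test, Aif1 was also the single gene with an unadjusted p below 0.05. In none of the 34 genes were the groups free of overlap, against 0.147% of all genes tested. A change in the number of macrophages and a change in RNA per macrophage cannot be told apart in RNA from whole tumor. The 95% CI of the log2 fold change lay within -1 and 1 for 30 of the 34 genes and within -0.5 and 0.5 for 19, so larger changes of these 19 are outside their intervals. The median absolute log2 fold change was 0.12, against 0.064 for all genes tested, and the median coefficient of variation over the 12 tumors was 22.4%, against 18.6% for all genes tested. Of the 19018 genes tested, 12737 reached 1 FPKM in at least 6 tumors. The rest are weakly expressed genes, whose changes the added 1 shrinks. Expression level was not matched, so these medians do not show that macrophage genes moved more than others.

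**Figure D2:**
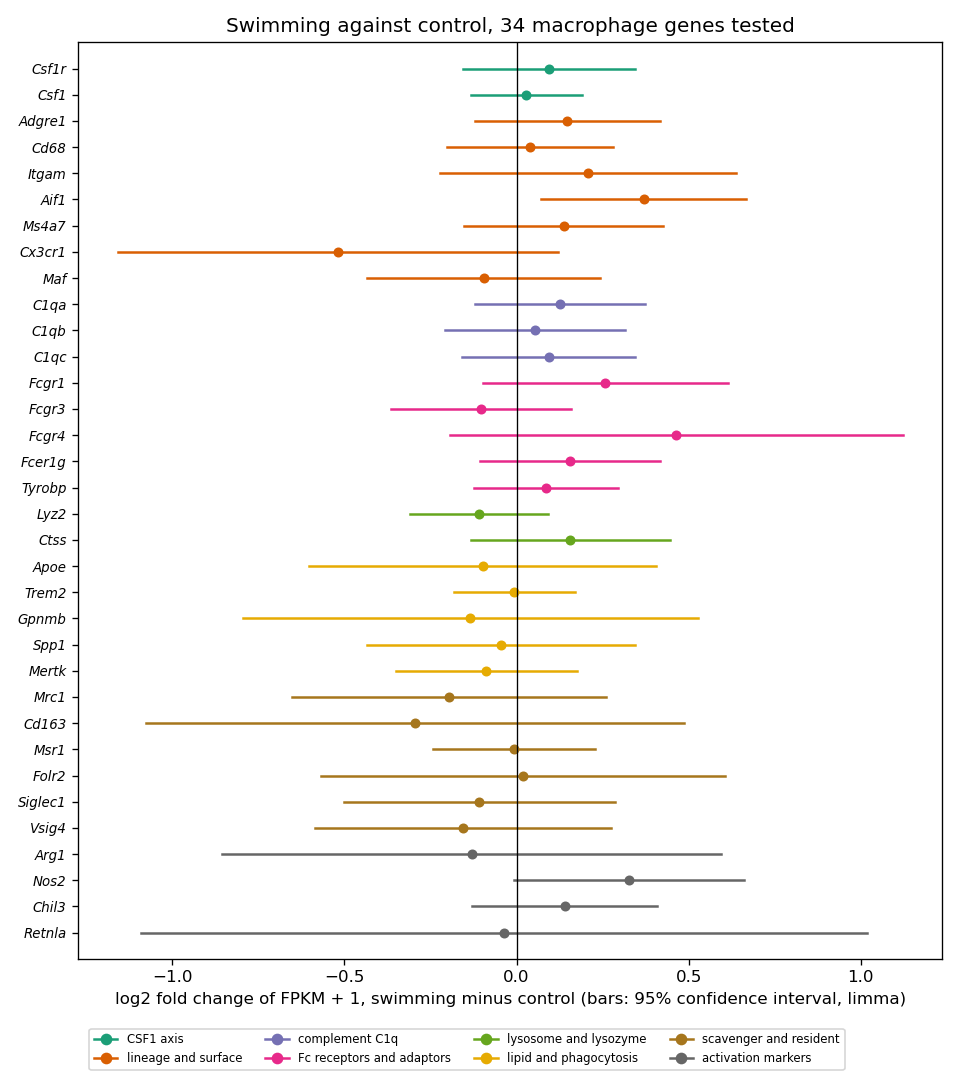
Log2 fold change of FPKM + 1 (swimming minus control) for the 34 genes tested, with points for the estimate, bars for limma's 95% confidence interval and colors for the role of each gene. The interval of Aif1 lies above 0, and those of the other 33 genes include 0.

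The count of 1 gene depended on single tumors. Leaving out control 1 gave 3 genes (Aif1, Cx3cr1 and Nos2) beside 6.65% of all genes tested, which is near that background for 34 genes. Leaving out swimming 1 gave 5 genes (Aif1, Nos2, Fcgr1, Fcgr4 and Ctss) beside 7.59% of all genes tested. Without control 3 (Cd163), control 4 (Fcgr4), swimming 3 (Cx3cr1), swimming 4 (Nos2) or swimming 5 (Nos2) it was 2, that is Aif1 and the gene named in each case, beside 7.06%, 4.83%, 4.69%, 4.87% and 4.53% of all genes tested. With any tumor left out, limma gave 0 of the 34 genes an adjusted p below 0.05. Control 3 and swimming 5 most often held the extreme values of the macrophage genes. Control 3 was the lowest of the 12 tumors for 17 of the 34 genes. Swimming 5 was the highest for 16 and the lowest for 4. Control 4 was above the mean log2 level of the gene for 29 of the 34 genes, against 26 for swimming 5.

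Csf1r and Csf1, the receptor and a ligand of the axis that maintains macrophages, were nearly level between the groups. Csf1r (ENSMUSG00000024621) was at 44.8, 40.4, 26.9, 34.95, 30.6 and 34.1 FPKM in control tumors 1 to 6 and at 36.7, 38.02, 36.1, 34.8, 46.7 and 32.5 FPKM in swimming tumors 1 to 6. The lowest value was that of control 3 and the highest that of swimming 5, and the groups overlapped widely. The group means were 35.3 ± 6.49 FPKM in control and 37.5 ± 4.87 FPKM in swimming tumors (SD, n = 6 each), and the log2 fold change was 0.094 (95% CI -0.15 to 0.34), with an unadjusted p of 0.428 in limma and 0.481 in the exact permutation test. Its exons overlap those of Hmgxb3, which was at 8.78 FPKM in control tumors and 8.32 FPKM in swimming tumors. Csf1 (ENSMUSG00000014599, chr3:107741048-107760469) was at 35.5, 35.8, 30.5, 38.5, 39 and 39.6 FPKM in control tumors 1 to 6 and at 41.1, 38.9, 38.9, 31.1, 36.9 and 36.6 FPKM in swimming tumors 1 to 6. No tumor left the range of 30.5 to 41.1 FPKM. Its log2 fold change was 0.028 (95% CI -0.13 to 0.19), with an unadjusted p of 0.715 in limma and 0.688 in the exact permutation test.

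Among the lineage and surface genes, 5 of 7 had a higher mean in the swimming group, and Aif1 was the one with an unadjusted p below 0.05. Aif1 (ENSMUSG00000024397, chr17:35170991-35176068, minus strand, GRCm38), which encodes the actin-binding protein IBA1 of macrophages and microglia, was at 14.1, 12.6, 9.64, 13.9, 9.24 and 11.98 FPKM in control tumors 1 to 6 and at 12.4, 15.6, 14.4, 12.8, 21.7 and 17.6 FPKM in swimming tumors 1 to 6. All 6 swimming tumors were above the control median, although swimming 1 and swimming 4 were below the highest control tumors. The group means were 11.9 ± 2.08 FPKM in control and 15.8 ± 3.45 FPKM in swimming tumors (SD, n = 6 each). The log2 fold change was 0.37 (95% CI 0.072 to 0.67), SE 0.14, with p = 0.0189 unadjusted and 0.889 adjusted in limma and an unadjusted p of 0.0346 in the exact permutation test. Cx3cr1 (ENSMUSG00000052336, chr9:119901616-120069879, minus strand), the receptor of fractalkine on monocytes and resident macrophages, had the largest difference in the other direction. It was at 0.823, 2.22, 1.94, 3.52, 1.71 and 5.92 FPKM in control tumors 1 to 6 and at 0.913, 1.43, 3.47, 0.952, 1.23 and 0.865 FPKM in swimming tumors 1 to 6. Only swimming 3 was above the control median, and control 1 was lower than every swimming tumor. Its log2 fold change was -0.52 (95% CI -1.16 to 0.12), SE 0.30, with an unadjusted p of 0.103 in limma and 0.154 in the exact permutation test. Without control 1 the log2 fold change of Cx3cr1 was -0.70 with an unadjusted p of 0.0265 in limma. With each tumor left out in turn it ranged from -0.70 to -0.31.

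The other lineage genes did not pass the test. Adgre1, which encodes the surface protein F4/80, ranged from 17.2 to 22.8 FPKM (median 18.6) in control tumors and 16.4 to 30.2 FPKM (median 21.4) in swimming tumors. Swimming 5 was the highest tumor, and the log2 fold change was 0.15 (95% CI -0.12 to 0.42) with an unadjusted p of 0.256 in limma. Cd68, a glycoprotein of the lysosomal membrane, ranged from 42.1 to 67.4 FPKM (median 52.7) in control tumors and 47.3 to 67.6 FPKM (median 52.6) in swimming tumors, with a log2 fold change of 0.039 (95% CI -0.20 to 0.28). The means of Cd68 were 53.6 and 54.9 FPKM. Itgam, the CD11b integrin chain shared with neutrophils, ranged from 8.71 to 17.1 FPKM (median 14.6) in control tumors and 10.4 to 24.2 FPKM (median 16.3) in swimming tumors, with a log2 fold change of 0.21 (95% CI -0.22 to 0.64). Its exons overlap those of Gm49368, which was at 24.0 FPKM in control tumors and 21.4 FPKM in swimming tumors, so the division of reads between them is uncertain. Ms4a7, a membrane protein of macrophages, ranged from 4.55 to 7.18 FPKM (median 5.56) in control tumors and 4.95 to 9.30 FPKM (median 5.65) in swimming tumors, with a log2 fold change of 0.14 (95% CI -0.15 to 0.43). Maf, a transcription factor of resident macrophages whose exons overlap Gm15655, ranged from 6.75 to 13.7 FPKM (median 11.3) in control tumors and 8.71 to 14.04 FPKM (median 9.37) in swimming tumors, with a log2 fold change of -0.096 (95% CI -0.44 to 0.24).

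The 3 genes of complement C1q, which lie side by side on chromosome 4 and encode the 3 chains of one protein made largely by macrophages, gave nearly the same picture. C1qa (ENSMUSG00000036887, chr4:136895917-136898803, minus strand) was at 431, 385, 293, 402, 352 and 311 FPKM in control tumors 1 to 6 and at 339, 387, 352, 391, 515 and 388 FPKM in swimming tumors 1 to 6. C1qb (ENSMUSG00000036905, chr4:136880129-136886187, minus strand) was at 231, 214, 160, 219.8, 189.9 and 165 FPKM in control tumors 1 to 6 and at 169, 192, 178, 206, 269.6 and 212 FPKM in swimming tumors 1 to 6. C1qc (ENSMUSG00000036896, chr4:136889804-136893065, minus strand) was at 153, 144, 100.1, 146, 126 and 114 FPKM in control tumors 1 to 6 and at 123, 142, 120.1, 130.1, 179 and 141 FPKM in swimming tumors 1 to 6. Control 3 was the lowest and swimming 5 the highest tumor for all 3 genes, and in each the groups overlapped. The log2 fold changes were 0.13 (95% CI -0.12 to 0.37) for C1qa, 0.053 (95% CI -0.21 to 0.32) for C1qb and 0.093 (95% CI -0.16 to 0.35) for C1qc, with unadjusted p of 0.294, 0.668 and 0.439 in limma. The exact permutation test gave unadjusted p of 0.340, 0.701 and 0.496.

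Of the 5 genes of Fc receptors and their adaptors, 4 had a higher mean in the swimming group and none passed the test. Fcgr4 (ENSMUSG00000059089, chr1:171018920-171029761, plus strand), an activating receptor for IgG, had the largest positive log2 fold change of the 34 genes. It was at 15.1, 13.9, 11.4, 29.6, 10.7 and 15.05 FPKM in control tumors 1 to 6 and at 8.50, 18.6, 28.1, 19.4, 32.9 and 30.8 FPKM in swimming tumors 1 to 6. Swimming 3, 5 and 6 lay between 28.1 and 32.9 FPKM, as did control 4, whereas swimming 1 was the lowest tumor of all. Its log2 fold change was 0.46 (95% CI -0.19 to 1.12), SE 0.30, with an unadjusted p of 0.151 in limma and 0.199 in the exact permutation test. Without control 4 the log2 fold change of Fcgr4 was 0.65 (unadjusted p = 0.0388 in limma), and without swimming 1 it was 0.71 (unadjusted p = 0.0107 in limma). Over all omissions of a single tumor it ranged from 0.34 to 0.71. Fcgr1, the high-affinity IgG receptor CD64, was at 15.9, 16.8, 12.8, 20.9, 13.1 and 14.2 FPKM in control tumors 1 to 6 and at 12.3, 17.5, 22.99, 16.1, 26.7 and 19.4 FPKM in swimming tumors 1 to 6. Swimming 1 was again the lowest tumor, and swimming 5 and swimming 3 were the highest. The log2 fold change of Fcgr1 was 0.26 (95% CI -0.098 to 0.61), with an unadjusted p of 0.142 in limma, and without swimming 1 it was 0.37 with an unadjusted p of 0.0240. Leaving out other tumors lowered it to as little as 0.16.

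Fcgr3, the low-affinity activating receptor CD16, went with neither of them. It was at 29.02, 31.04, 22.9, 28.3, 21.3 and 25.9 FPKM in control tumors 1 to 6 and at 28.9, 28.1, 19.7, 26, 18.8 and 26.3 FPKM in swimming tumors 1 to 6. Swimming 3 and swimming 5, which were high for Fcgr1 and Fcgr4, were the lowest tumors for Fcgr3. The log2 fold change was -0.10 (95% CI -0.36 to 0.16), with an unadjusted p of 0.409 in limma. The log2 ratio of Fcgr4 to Fcgr3, both taken as FPKM + 1, was -0.76 ± 0.42 in control tumors and -0.19 ± 0.88 in swimming tumors (SD, n = 6 each). This difference of 0.57 had an unadjusted p of 0.193 in the exact permutation test, and the pair was chosen after the values were seen. Fcgr3 lies close to Fcgr2b, the inhibitory receptor with a very similar sequence, which was at 31.5 FPKM in control tumors and 28.2 FPKM in swimming tumors, so reads could be divided between them. Fcer1g, the signaling chain that these receptors need, ranged from 33.9 to 51.2 FPKM (median 40.9) in control tumors and 39.8 to 59.6 FPKM (median 44.8) in swimming tumors, with a log2 fold change of 0.15 (95% CI -0.11 to 0.42). Tyrobp, the adaptor DAP12 of TREM2 and related receptors, ranged from 65.9 to 106 FPKM (median 90.7) in control tumors and 83.9 to 105 FPKM (median 92.6) in swimming tumors, with a log2 fold change of 0.084 (95% CI -0.13 to 0.29).

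Both secreted or lysosomal enzymes of the list were abundant. Ctss, the cysteine protease cathepsin S that trims the invariant chain of MHC class II, was at 186, 199.8, 168, 240.3, 154 and 172 FPKM in control tumors 1 to 6 and at 147, 191, 223, 203, 261 and 229 FPKM in swimming tumors 1 to 6. Swimming 5 and control 4 were the highest tumors, and swimming 1 was the lowest. The log2 fold change of Ctss was 0.16 (95% CI -0.13 to 0.44) with an unadjusted p of 0.266 in limma, and without swimming 1 it was 0.25 with an unadjusted p of 0.0449. Over all omissions of a single tumor it ranged from 0.087 to 0.25. Lyz2, the lysozyme of macrophages and other myeloid cells, ranged from 744 to 1050.5 FPKM (median 821) in control tumors and 687 to 878 FPKM (median 776) in swimming tumors, with a log2 fold change of -0.11 (95% CI -0.31 to 0.090). Its near copy Lyz1 was at 1.90 FPKM in control tumors and 1.83 FPKM in swimming tumors, far below Lyz2 on the same scale.

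All 5 genes of lipid handling and phagocytosis had a slightly lower mean log2 level in the swimming group, and none passed the test. Spp1 ranged from 2179.6 to 3540.0 FPKM (median 2593) in control tumors and 1947 to 3603 FPKM (median 2419.5) in swimming tumors, with a log2 fold change of -0.045 (95% CI -0.43 to 0.34). Apoe, the apolipoprotein of lipid-laden macrophages, ranged from 113 to 219 FPKM (median 158) in control tumors and 92.1 to 253 FPKM (median 153) in swimming tumors, with a log2 fold change of -0.098 (95% CI -0.60 to 0.41). Swimming 5 held the highest and swimming 6 the lowest value of Apoe, so the swimming group enclosed the control group. Trem2, a lipid-sensing receptor that signals through Tyrobp, ranged from 4.32 to 6.02 FPKM (median 4.59) in control tumors and 4.41 to 5.46 FPKM (median 4.71) in swimming tumors, and with a log2 fold change of -0.0067 (95% CI -0.18 to 0.17) it had one of the narrowest intervals. Gpnmb, a glycoprotein of lysosome-rich macrophages and melanocytes, ranged from 6.41 to 18.98 FPKM (median 11.2) in control tumors and 4.49 to 17.9 FPKM (median 9.70) in swimming tumors, with a log2 fold change of -0.13 (95% CI -0.80 to 0.53). Mertk, a receptor for the uptake of apoptotic cells, ranged from 3.51 to 5.94 FPKM (median 4.67) in control tumors and 3.38 to 5.45 FPKM (median 4.41) in swimming tumors, with a log2 fold change of -0.089 (95% CI -0.35 to 0.17). Over the 5 genes the median log2 fold change came to -0.089.

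Of the scavenger receptors and markers of resident macrophages, 5 of 6 tested had a lower mean log2 level in the swimming group, again with none past the test. Mrc1 (ENSMUSG00000026712, chr2:14229392-14332057, plus strand), the mannose receptor CD206, was at 56.9, 49.5, 29.3, 77.9, 70.4 and 44.1 FPKM in control tumors 1 to 6 and at 55.5, 40.2, 37.6, 45.2, 62.04 and 37.05 FPKM in swimming tumors 1 to 6. Control 4 and control 5 were the highest tumors and control 3 was the lowest, so the control group enclosed the swimming group. For Mrc1 the log2 fold change was -0.20 (95% CI -0.65 to 0.26), with an unadjusted p of 0.371 in limma and 0.437 in the exact permutation test. Cd163 (ENSMUSG00000008845, chr6:124304656-124330527, plus strand), the receptor of hemoglobin-haptoglobin complexes, was at 6.61, 4.06, 0.897, 12.8, 5.59 and 4.80 FPKM in control tumors 1 to 6 and at 3.53, 3.06, 3.75, 3.51, 6.60 and 2.78 FPKM in swimming tumors 1 to 6. Here too control 3 was the lowest and control 4 the highest of the 12 tumors. For Cd163 the log2 fold change was -0.29 (95% CI -1.08 to 0.49), SE 0.36, with an unadjusted p of 0.431 in limma and 0.5 in the exact permutation test. Without control 3 it was -0.62 with an unadjusted p of 0.0270 in limma. With each tumor left out in turn it ranged from -0.62 to -0.045.

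Msr1, the class A scavenger receptor, ranged from 18.3 to 30.3 FPKM (median 23.6) in control tumors and 19.7 to 26.3 FPKM (median 23.8) in swimming tumors, with a log2 fold change of -0.0072 (95% CI -0.24 to 0.23). Siglec1, the sialic acid receptor CD169, ranged from 8.82 to 19.9 FPKM (median 15.6) in control tumors and 11.4 to 21.8 FPKM (median 12.7) in swimming tumors, with a log2 fold change of -0.11 (95% CI -0.50 to 0.29). Both were without a difference beyond the spread between tumors. Folr2, a folate receptor of perivascular and tissue-resident macrophages, ranged from 7.42 to 29.03 FPKM (median 15.7) in control tumors and 12.5 to 26.4 FPKM (median 14.5) in swimming tumors, with a log2 fold change of 0.018 (95% CI -0.57 to 0.61). Vsig4, a complement receptor of resident macrophages, ranged from 0.358 to 1.56 FPKM (median 1.06) in control tumors and 0.420 to 1.88 FPKM (median 0.577) in swimming tumors, with a log2 fold change of -0.16 (95% CI -0.59 to 0.27). Folr2 overlaps exons of Gm10602, which was at 0.381 FPKM in control tumors and 0.602 FPKM in swimming tumors.

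Of the 4 activation markers, 2 had a higher and 2 a lower mean log2 level in the swimming group, and none passed the test. Nos2 (ENSMUSG00000020826, chr11:78920787-78960254, plus strand), the inducible nitric oxide synthase, was at 2.34, 1.44, 1.38, 1.27, 1.07 and 1.35 FPKM in control tumors 1 to 6 and at 1.39, 1.89, 3.31, 1.67, 1.71 and 2.87 FPKM in swimming tumors 1 to 6. All 6 swimming tumors were above the control median, but control 1 was higher than all swimming tumors except swimming 3 and swimming 6. The means were 1.48 ± 0.443 FPKM in control and 2.14 ± 0.764 FPKM in swimming tumors (SD, n = 6 each). The log2 fold change was 0.33 (95% CI -0.0083 to 0.66), SE 0.15, with an unadjusted p of 0.0552 in limma and 0.0931 in the exact permutation test. Without control 1 the log2 fold change of Nos2 was 0.42 with an unadjusted p of 0.0141 in limma. Over all omissions of a single tumor it ranged from 0.23 to 0.42. Arg1 (ENSMUSG00000019987, chr10:24915221-24927484, minus strand), the arginase that competes with it for arginine, was at 29.8, 26.7, 47.2, 65.2, 21.99 and 31.9 FPKM in control tumors 1 to 6 and at 32.2, 29.3, 80.5, 32.4, 15.98 and 24.8 FPKM in swimming tumors 1 to 6. Swimming 3 held the highest value and swimming 5 the lowest, so the swimming group enclosed the control group. For Arg1 the log2 fold change was -0.13 (95% CI -0.85 to 0.59), with an unadjusted p of 0.704 in limma and 0.742 in the exact permutation test. The log2 ratio of Nos2 to Arg1, both taken as FPKM + 1, was -3.87 ± 0.63 in control tumors and -3.41 ± 0.62 in swimming tumors (SD, n = 6 each). This difference of 0.46 had an unadjusted p of 0.238 in the exact permutation test. With Nos2 at 1.07 to 3.31 FPKM, the added 1 makes the ratio smaller in size than that of the FPKM values. This pair too was chosen after the values were seen. Chil3, the chitinase-like protein Ym1, ranged from 0.0724 to 0.534 FPKM (median 0.387) in control tumors and 0.150 to 0.782 FPKM (median 0.537) in swimming tumors, with a log2 fold change of 0.14 (95% CI -0.13 to 0.41). Retnla, the resistin-like protein also called FIZZ1, ranged from 0 to 7.75 FPKM (median 0.104) in control tumors and 0 to 1.83 FPKM (median 0.501) in swimming tumors. Its high mean in the control group came from control 1 at 7.75 FPKM, and the next control tumor was at 0.496 FPKM. The log2 fold change of Retnla was -0.037 (95% CI -1.09 to 1.02), and with a pseudocount of 0.1 in place of 1 it had the opposite sign (0.31).

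**Figure D3:**
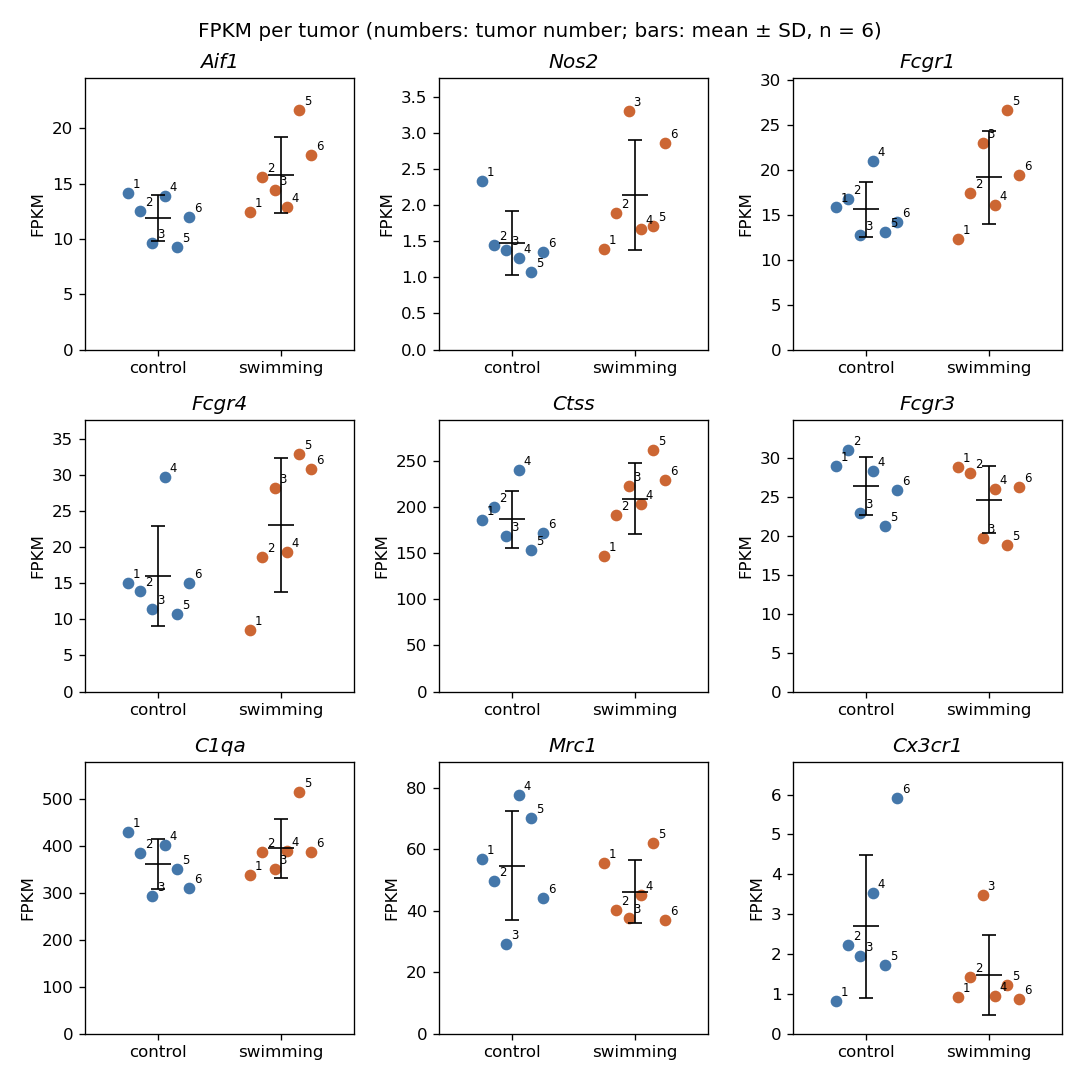
FPKM of 9 of the genes in each tumor, with the tumor number beside each point and the mean ± SD of each group (n = 6) as bars, on axes that start at 0. For Aif1 and Nos2 the swimming tumors sit above the control median of 12.3 and 1.36 FPKM, for Fcgr4 control 4 sits among the swimming tumors, and for Fcgr3 and Mrc1 the groups overlap throughout.

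A further list of 47 genes of mononuclear phagocytes, none of them among the 35, gave few calls. Of these 47, 1 was higher and 3 were lower at an unadjusted p below 0.05 in limma, 23 had a higher mean log2 level in the swimming group, and the median log2 fold change was -0.016. Among all genes tested, 3.11% were higher and 2.46% lower at this threshold. Tnf, the tumor necrosis factor of activated macrophages and T cells, was at 1.11 ± 0.370 FPKM in control and 1.85 ± 0.413 FPKM in swimming tumors (SD, n = 6 each). Its log2 fold change was 0.43 (unadjusted p = 0.00460 and adjusted p = 0.889 in limma). The 3 lower genes all encode lysosomal proteins. The protease gene Ctsl had a log2 fold change of -0.24, its relative Ctsd of -0.15 and the membrane protein gene Cd63 of -0.13, with unadjusted p of 0.0162, 0.0430 and 0.0173 in limma. Il34, the other ligand of CSF1R, was at 17.7 ± 2.20 FPKM in control and 15.7 ± 2.003 FPKM in swimming tumors (SD, n = 6 each), and Spi1, which encodes PU.1, at 15.5 ± 2.93 FPKM in control and 16.98 ± 1.41 FPKM in swimming tumors (SD, n = 6 each). Neither Il34 nor Spi1 had an unadjusted p below 0.05 in limma.

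The genes were next compared with each other across the 12 tumors, first with Csf1r as the gene that marks the lineage. Of the 33 relations with Csf1r, 10 (30.3%) had a Pearson r of at least 0.6, against 8.14% of all genes tested. With Benjamini-Hochberg adjustment over the 33 relations, 7 were below 0.05 by permutation of Pearson's r and 0 by permutation of Spearman's rho. The 7 genes were C1qc (r = 0.82, rho = 0.72, permutation p = 0.00154, adjusted p = 0.0266), C1qa (r = 0.80, rho = 0.60), Maf (r = 0.80, rho = 0.68), Siglec1 (r = 0.73, rho = 0.51), Folr2 (r = 0.72, rho = 0.38), C1qb (r = 0.71, rho = 0.64) and, in the opposite direction, Gpnmb (r = -0.71, rho = -0.61, permutation p = 0.00921, adjusted p = 0.0464). For C1qc, r was 0.86 within the control group and 0.74 within the swimming group. Csf1r itself was lowest in control 3 and highest in swimming 5. Without these 2 tumors, the farthest from its median, the 7 values of r lay between 0.36 and 0.56 or, for Gpnmb, at -0.40. Of the 33, 0 were then below an adjusted permutation p of 0.05. Leaving out the extremes also narrows the range of Csf1r and leaves fewer tumors, so this cannot show whether the relations rest on them. Csf1 did not track its receptor (r = 0.26, rho = 0.021, permutation p = 0.407). The genes of all 19018 whose levels were most like Csf1r were Fgd5 (r = 0.93), Sall2, Atp13a2, Kdr, Zfp385a, Gnai2, Pecam1, Anxa6, Gpc4 and Lama4 (r = 0.90), none of which is among the 35. Kdr and Pecam1 are markers of endothelial cells. Each of the genes just named was closer to Csf1r than any of the macrophage genes, of which C1qc was the closest (r = 0.82). The part of endothelial cells in this was not tested.

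**Figure D4:**
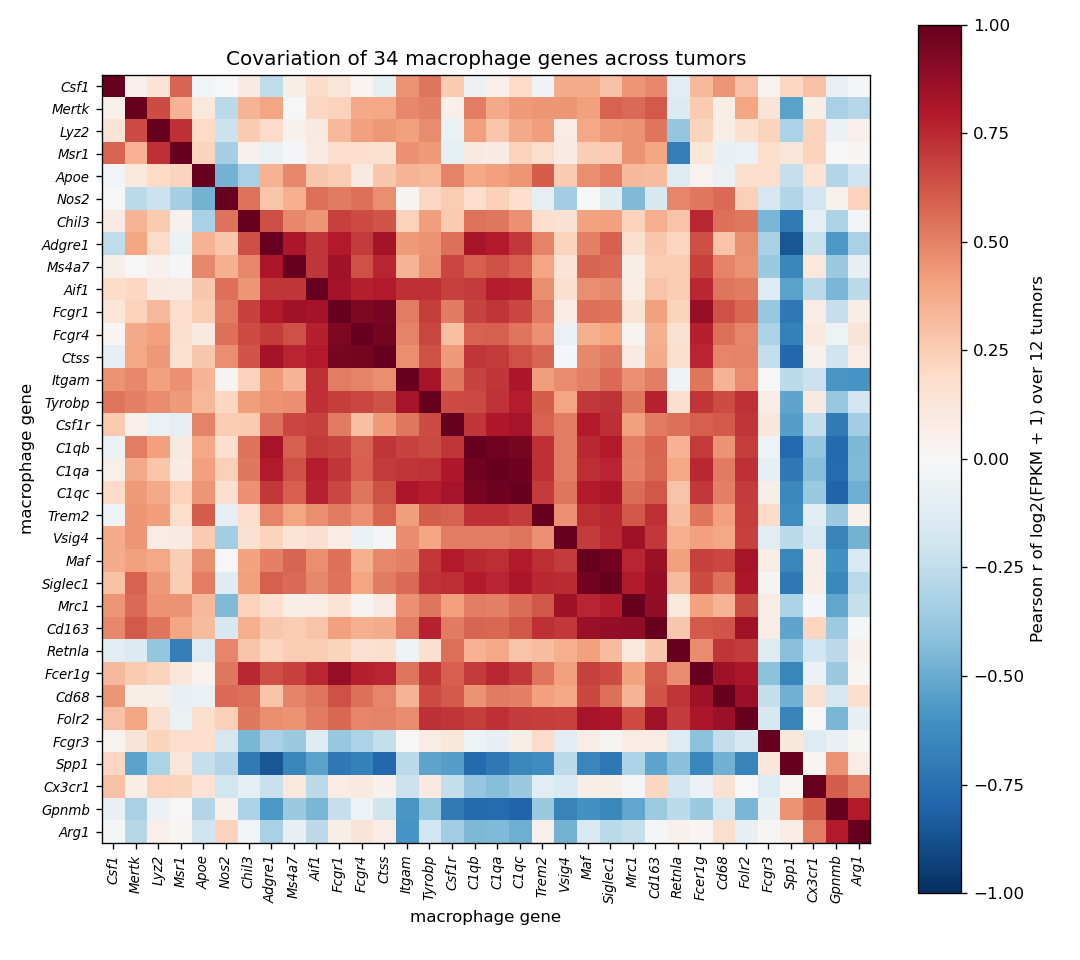
Pearson r of log2(FPKM + 1) over the 12 tumors for each pair of the 34 genes tested, from -1 (blue) to 1 (red), with similar genes side by side. The 3 C1q genes, the group of Fcgr1, Fcgr4 and Ctss, and the group of Maf, Siglec1, Mrc1 and Cd163 form red blocks, while Spp1 and Gpnmb are blue against most of them.

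Of the 561 pairs of the 34 genes, 124 (22.1%) had an r of at least 0.6, against 3.37% of all pairs of genes tested, and 22 (3.92%) had an r of -0.6 or below, against 2.52%. At an adjusted permutation p below 0.05 over the 561 pairs there were 48 positive and 6 negative pairs by Pearson's r, 22 pairs by Spearman's rho and 17 by both. The C1q genes were the closest, with a mean r of 0.96 between them. Another group was formed by the Fc receptor genes Fcgr1 and Fcgr4 and by Ctss. For Fcgr4 and Ctss, r was 0.96 and rho 0.95 (permutation p = 1e-05 for r, the smallest that 100000 permutations can give, adjusted p = 0.0016). It was 0.91 within the control group, 0.98 within the swimming group and 0.93 without the 2 tumors farthest from the median. Fcgr1 had an r of 0.93 with Fcgr4 (rho = 0.91) and 0.95 with Ctss (rho = 0.94), and without 2 tumors these were 0.93 and 0.96. Aif1 had an r of 0.83 with Fcgr1 (rho = 0.83), 0.79 with Ctss (rho = 0.78) and 0.78 with Fcgr4 (rho = 0.85), and without control 5 and swimming 5 these were 0.69, 0.61 and 0.69. Fcgr3 had no r above 0.22 with any other gene of the list.

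A further group consisted of genes of resident and scavenging macrophages. Maf and Siglec1 had an r of 0.96 (rho = 0.85), Cd163 and Mrc1 of 0.89 (rho = 0.86), Cd163 and Siglec1 of 0.88 (rho = 0.92) and Maf and Cd163 of 0.86 (rho = 0.88). Spp1 and Gpnmb ran against the C1q and F4/80 genes. Adgre1 and Spp1 had an r of -0.85 and a rho of -0.86, with an adjusted permutation p of 0.0081 for r and 0.0272 for rho. This relation was -0.85 within the control group, -0.91 within the swimming group and -0.86 without 2 tumors. The r of Gpnmb was -0.80 with C1qc (rho = -0.72), -0.78 with C1qb (rho = -0.70) and -0.77 with C1qa (rho = -0.56), and 0.79 with Arg1 (rho = 0.76). All pairs named here had an adjusted permutation p below 0.05 for r. Without control 3 and swimming 5 these C1q relations were -0.57, -0.55 and -0.49. These relations describe the 12 tumors, and the part of the share of macrophages in each tumor was not tested.

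Genes induced by interferon gamma were examined beside the Fc receptor genes. Their list was chosen with earlier results of these data known, so its counts are a description and not a test. Of the 12 genes on this list, 10 were higher in the swimming group at an unadjusted p below 0.05 in limma, against 3.11% of all genes tested. The median log2 fold change of the 12 was 0.64. The smallest p was that of Gbp3, a guanylate-binding protein (log2 fold change 0.93, unadjusted p = 0.0064 and adjusted p = 0.889 in limma). The summed level of the 12 genes was 139 to 265 FPKM in control tumors and 142 to 490 FPKM in swimming tumors, and none of the 12 was at 0 in all tumors. By tumor, the mean deviation of the 12 genes from their own mean on the log2 scale was -0.49, -0.37, -0.26, 0.11, -0.75 and -0.26 in control tumors 1 to 6. In swimming tumors 1 to 6 it was -0.77, 0.23, 0.61, 0.34, 0.81 and 0.79. Control 4, the control tumor with the highest interferon level, was also the highest control tumor for Fcgr1, Fcgr4 and Ctss, and swimming 1, the lowest of all, was the lowest tumor for the same 3 genes. Swimming 3, 5 and 6 were the highest swimming tumors for both. The part of the interferon genes in the values of Fcgr1, Fcgr4, Ctss and Aif1 was not tested.

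**Figure D5:**
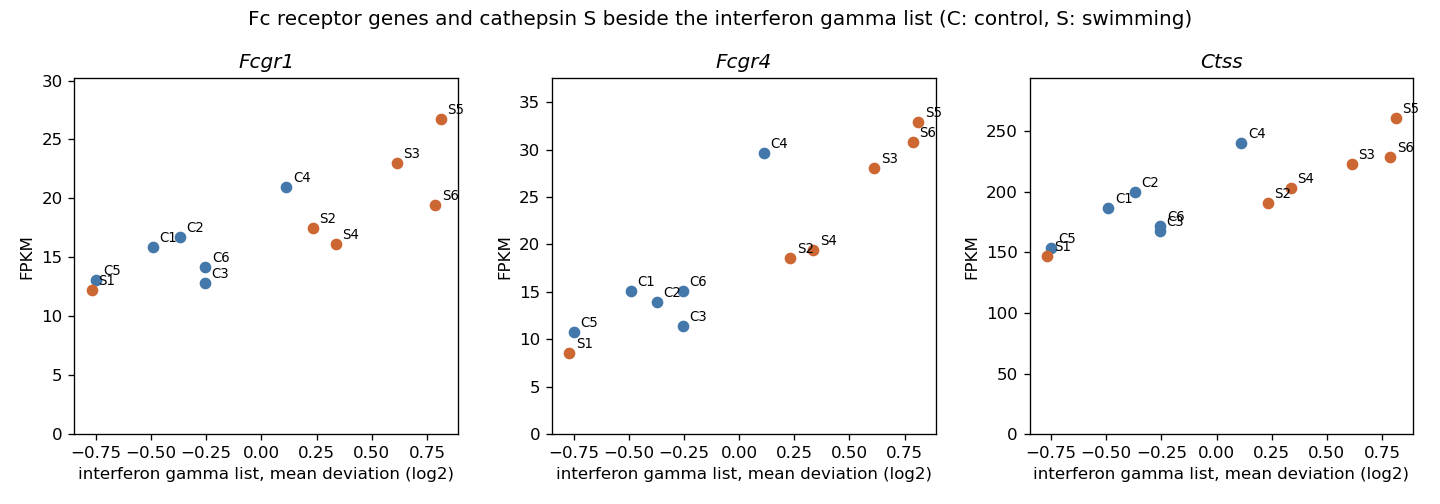
FPKM of Fcgr1, Fcgr4 and Ctss (vertical axes, from 0) against the mean deviation of 12 interferon gamma genes on the log2 scale (horizontal axes) in each control (C, blue) and swimming (S, orange) tumor. Swimming 1 at -0.77 lies at the lower left among the control tumors, and control 4 at 0.11 lies above the other control tumors.

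Markers of other cells, on lists also chosen with earlier results of these data known, were read in the same tumors. Of 7 T cell genes, 5 were higher in the swimming group at an unadjusted p below 0.05 in limma, against 3.11% of all genes tested. Cd3d had the smallest p (log2 fold change 0.48, unadjusted p = 0.00630 and adjusted p = 0.889 in limma). The summed level of the T cell genes was 3.91 to 9.72 FPKM in control tumors and 6.99 to 18.6 FPKM in swimming tumors. Of 8 dendritic cell genes, 2 were higher at this threshold, Flt3 and Xcr1, the latter with the smallest p (log2 fold change 0.31, unadjusted p = 0.00373 and adjusted p = 0.889 in limma). Of 6 proliferation genes, Mki67 alone was higher (log2 fold change 0.30, unadjusted p = 0.0119 and adjusted p = 0.889 in limma). No gene reached an unadjusted p of 0.05 in limma among those tested for monocytes (7, smallest p for Plac8), neutrophils (7, Retnlg), natural killer cells (4, Klre1), B cells (2, Cd79a), mast cells and basophils (4, Mcpt8), fibroblasts (7, Col1a2), endothelial cells (5, Kdr), skeletal muscle (5, Myh4), adipocytes (3, Cfd), erythroid cells (5, Hbb-bs) and epithelial cells (5, Krt8). The monocyte list holds Chil3, and the interferon list shares Irf8 with the list of mononuclear phagocyte genes. The summed level of the neutrophil genes, 17.9 to 47.7 FPKM over all tumors, was far below that of the defining macrophage genes. The latter sum includes C1qa, C1qb and C1qc, with means of 379, 201 and 135 FPKM. These sums therefore do not compare numbers of cells. The fibroblast genes varied from 198 to 807 FPKM in control tumors and from 235 to 776 FPKM in swimming tumors. Whether these cells had a part in the values of Spp1, Apoe, Csf1 and the other shared genes was not tested.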

How the data were processed

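RNA of 12 CT-26 tumors (6 control, 6 swimming) was sequenced after removal of ribosomal RNA. The authors mapped the reads with Hisat2 (v2.0.5), quantified them with StringTie (v1.3.3) and deposited 1 FPKM value per gene and tumor. The methods name the human genome hg38 and the submitters' processing notes also GRCm38, while the files hold mouse Ensembl identifiers. Of 30630 identifiers, 30578 were matched to GENCODE M21, and coordinates are from that annotation, matched by identifier. How StringTie divides reads between overlapping or similar genes is part of the deposited values, and without read numbers no counting error could be given. Groups were taken from the labels, and all 12 tumors were used.

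The 19018 genes that reached 0.1 FPKM in 6 or more tumors were compared on log2(FPKM + 1) with limma 3.58.1 (R 4.3.3; lmFit, eBayes with trend, group only) and Benjamini-Hochberg adjustment over all of them. The study names limma with a cut-off above 2 and a p below 0.05, without saying whether p was adjusted. Counts here use an unadjusted p below 0.05 and no fold cut-off. A two-sided exact permutation test of single genes ran over the 924 divisions of the tumors into 6 and 6 (smallest p 0.00216). Correlations were tested by 100000 two-sided permutations. Python 3.11.15, pandas 2.3.3, scipy 1.17.1 and matplotlib 3.10.9 were used for the rest. The comparison was tested on simulated data for 19018 genes with 200 changed. The changed genes were drawn from those with a mean log2(FPKM + 1) above 1. Errors were independent and normal, with the within-group SD of each gene. At log2 changes of 0.25, 0.5 and 1, 73.5%, 95% and 98.5% of the changed genes had an unadjusted p below 0.05, and 4.5%, 76% and 96% an adjusted p below 0.05. These shares cover genes of differing spread and were not computed for the macrophage genes, some of which lie below that level.

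The member genes, marker lists and tests were chosen with earlier results of these data known. All 35 genes are named. Those with the value of every tumor are the genes with an unadjusted p below 0.05, the 5 log2 fold changes largest in size, Csf1r, Csf1, the C1q genes, Arg1, Nos2, Mrc1 and Cd163. Fcgr1, Fcgr3 and Ctss were added after their values were seen. Of each marker list the gene with the smallest p is named. Alternatives were pseudocounts of 0.1 and 0.01, no filter, a filter of 1 FPKM, quantile and median-ratio scaling, no trend, sample weights, a replicate block and leaving out each tumor. Leaving out control 1 with swimming 5, Csf1r as a covariate, all pairs of genes and 2 ratios were added after the data were seen.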

Additional observations from a re-analysis of the deposited data

Results flagged for a closer look

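Among 68 sets of 6 tumors (34 genes in each of both groups), 8 held a highest tumor far from the other 5 by Dixon's criterion at the 95% level. Chance marks about 1 in 20 sets, or 3.4 of 68, if values are normal and sets independent. Many of these genes moved together across tumors, so the 8 are not read as an excess. Swimming 5 stood apart for 4 genes. Its level of C1qa was 515 FPKM with the other swimming tumors at 339 to 391 FPKM, its level of Maf 14.0 FPKM with the others at 8.71 to 10.3 FPKM, its level of Siglec1 21.8 FPKM with the others at 11.4 to 12.9 FPKM, and its level of Cd163 6.60 FPKM with the others at 2.78 to 3.75 FPKM. Control 1 stood apart for Nos2 at 2.34 FPKM (others 1.07 to 1.44 FPKM) and for Retnla at 7.75 FPKM (others 0 to 0.496 FPKM). Control 4 stood apart for Fcgr4 at 29.6 FPKM (others 10.7 to 15.1 FPKM), and swimming 3 for Cx3cr1 at 3.47 FPKM (others 0.865 to 1.43 FPKM).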

How the results depend on the processing

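The number of macrophage genes with an unadjusted p below 0.05 in limma was 1 (Aif1) as reported. It was 2 with a pseudocount of 0.01 and 2 with sample weights (Aif1 and Nos2 in both), 3 without control 1 and swimming 5 (Aif1, Cx3cr1 and Nos2), 2 with Csf1r as a covariate (Aif1 and Maf), and 1 to 5 with each tumor left out. With the replicate number as a block it was 0, and Aif1 had an unadjusted p of 0.0556 in limma. Same-numbered tumors come from different mice and did not deviate together (mean r -0.12, range -0.32 to 0.0059 over 6 pairs, against 0.025 for other numbers), so the block describes a number only. In all settings 0 of the 34 genes passed the adjusted threshold. The median log2 fold change ranged from -0.012 to 0.10 with each tumor left out. The direction was the same in every setting for 23 of 34 genes. It reversed for Retnla (0.31 and 0.49 with pseudocounts of 0.1 and 0.01, 0.055 with sample weights, 0.35 without control 1 and swimming 5), Msr1 (0.00045 with quantile normalization, 0.0020 with sample weights, 0.00033 with Csf1r as a covariate), Trem2 (0.012 with sample weights) and Arg1 (0.016 without control 1 and swimming 5). With Csf1r as a covariate it reversed for Cd68 (-0.017), C1qb (-0.017), Folr2 (-0.15), Spp1 (0.034) and Gpnmb (0.047). With each tumor left out, log2 fold changes that crossed 0 ranged from -0.25 to 0.043 for Apoe, -0.39 to 0.058 for Arg1, -0.030 to 0.10 for C1qb, -0.026 to 0.11 for Cd68, -0.021 to 0.078 for Csf1, -0.18 to 0.19 for Folr2, -0.30 to 0.059 for Gpnmb, -0.074 to 0.065 for Msr1, -0.21 to 0.45 for Retnla, -0.14 to 0.038 for Spp1 and -0.038 to 0.047 for Trem2. The 7 relations with Csf1r fell to 0 with Spearman's rho and without the 2 farthest tumors, an omission that also narrows the range of Csf1r. They were also 0 within the control group and 0 within the swimming group, but 6 tumors can hardly pass this adjustment, so these counts say nothing about stability. Within the control group r was 0.86 for C1qc, 0.85 for Maf, 0.83 for C1qa, 0.81 for C1qb, 0.78 for Siglec1, 0.73 for Folr2 and -0.76 for Gpnmb. The 54 pairs fell to 22 with Spearman's rho. The cause of the other changes was not tested. Precision is limited by 6 tumors per group and an unknown read depth, which was relatively lowest in control 2. The SE of the log2 fold change was largest for Retnla (0.49), Cd163 (0.36) and Arg1 (0.34).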
